A study of Rattus norvegicus with 11 samples.

Results

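The genes described here code for the machinery that acidifies the lysosome and for the proteases and membrane proteins that work inside it. They were taken from the count table by symbol: the subunits and accessory proteins of the vacuolar ATPase (Atp6v0, Atp6v1, Atp6ap1 and Atp6ap2), the cathepsins named by a single letter, and Lamp1 to Lamp3, leaving out Atp6v0d2, Ctsk and Ctsg. The rule found 39 of the 23781 genes in the table. They comprise 13 genes of the V1 sector, 8 of the V0 sector, 2 accessory proteins, 12 cathepsins, 3 LAMPs and Atp6v1fnb, which matches the pattern as a neighbour of Atp6v1f and is not a pump subunit. A filter on low counts kept 37 of them and 18049 of all genes. Atp6v1b1, with 3 counts over all libraries, and Atp6v1g2, with 29, did not pass.

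RNA was sequenced from Cd45- cells of the new tissue that filled defects cut across the coronal sutures of male Sprague Dawley rats aged 4 months. Every animal carried the defect, and tissue was taken 6 weeks after surgery. NC received no scaffold (3 libraries), GelMA a gelatin methacryloyl hydrogel (3 libraries), CTS porous chitosan (3 libraries) and PLA an electrospun polylactic acid membrane (2 libraries). Cells were freed with collagenase, fixed and permeabilized, stained for CD45 and sorted as Cd45-. The labels do not say whether the libraries of a group came from separate animals, so the p-values measure the spread between these libraries, which may be technical.

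Total counts per library ran from 22509898 to 31290849. Levels between groups are given as CPM, counts per 1000000 counts of the TMM-scaled library, and levels between genes as the deposited FPKM, which is also scaled by gene length. TMM, which offsets differences in composition, gave PLA factors of 0.772 and 0.780, against 0.804 to 1.14 in the other libraries. RNA of Ptprc, which codes for CD45, was present in every library, at 336 to 1460 CPM. NC replicate 2 stood apart from the other NC libraries: its 10 fibroblast and mesenchymal marker genes summed to 227336 CPM, the highest of all libraries, and its Ptprc level was the lowest. In bulk RNA, a change in the number of cells of a type and a change in RNA per cell cannot be told apart.

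The vacuolar ATPase is a rotary pump. Its cytosolic V1 sector splits ATP, and its membrane V0 sector carries protons into the lysosome, endosome or, in osteoclasts, the resorption space. The low pH activates the cathepsins, proteases that degrade endocytosed protein and, when secreted, matrix. LAMPs are heavily glycosylated proteins that line the lysosomal membrane. Many genes of this system carry an E-box-like sequence to which the transcription factor TFEB binds.

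PLA stood above NC, GelMA and CTS in the summed level of the 39 genes. The sum was 15807 and 16128 CPM in the PLA libraries, 6198 to 8719 in NC, 7003 to 8390 in GelMA and 6329 to 7556 in CTS. PLA was higher in each sector of the pump, in the cathepsins and in the LAMPs. V1 genes summed to 2621 and 2754 CPM in PLA and to at most 1008 elsewhere, and V0 genes to 1278 and 1298 CPM in PLA and to at most 778 elsewhere. The cathepsins summed to 9187 and 9600 CPM in PLA against at most 5905 elsewhere. Without Ctsb they summed to 4421 and 4543 CPM in PLA and 2623 to 4794 in NC, so that PLA overlapped NC. Without Ctsb the sum of all members was still highest in PLA, at 11041 and 11071 CPM against at most 7608. V1 without Atp6v1b2 summed to 1537 CPM in PLA against at most 708 elsewhere. V0 without Atp6v0b summed to 892 to 908 CPM in PLA against at most 710, and the LAMPs without Lamp1 to 813 to 837 against at most 669. As a share of all counts, with no TMM factor, the 39 genes took 1.22% and 1.26% in PLA and 0.663% to 0.939% in the other libraries. On that scale, neither V0 without Atp6v0b nor the LAMPs without Lamp1 stood above all other libraries in PLA.

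The test was edgeR's quasi-likelihood F-test, with the 11 libraries fitted together, and a gene was called at an adjusted p under 0.05 with a log2 fold change beyond 1 in size. Against NC, 12 of the 37 genes tested were higher in PLA (32.4%), where 8.32% of all genes tested were called higher. None was lower, against 4.01% of all genes. In edgeR 3 had an unadjusted p under 0.05 and a lower level, and DESeq2 and limma on log2(FPKM + 1) also called 0. Against GelMA, 8 were higher (21.6%) and 4 lower (10.8%) in PLA, with 4.61% and 1.47% of all genes called in these directions. Against CTS, 10 were higher in PLA (27.0%) where 6.42% of all genes were. There 0 were called lower, where 3.53% of all genes were, 1 was lower at an unadjusted p under 0.05 in edgeR, and DESeq2 and limma each called 1. With TMM, the median log2 fold change of the 37 genes was 0.64, 0.45 and 0.46 in these comparisons. That of all genes was -0.11, -0.04 and -0.03. When libraries were scaled by their total alone, the medians of the 37 genes were 0.30, -0.08 and -0.02. Scaling by the total alone shifts the median of all genes by -0.34, -0.54 and -0.48. It leaves 8 members higher and 1 lower against NC, 4 higher and 5 lower against GelMA and 8 higher and 1 lower against CTS. Of all 18049 genes tested, that scaling called 1078 higher and 1531 lower against NC. It called 438 higher and 2312 lower against GelMA, and 688 higher and 2227 lower against CTS. The same 2 PLA libraries enter each of these comparisons. In CPM, both PLA libraries lay above all NC libraries in 25 of the 37 members and below all in 4, against 21.9% and 17.2% of all genes. For GelMA these were 22 and 7, against 27.7% and 30.7%. For CTS they were 23 and 3, against 26.5% and 27.8%.

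The groups without PLA differed in fewer members. GelMA had 5 of the 37 higher than NC (13.5%), where 5.03% of all genes tested were called, and 0 lower, where 3.21% were. CTS had 1 higher than NC (2.70%) and 0 lower, where 0.155% and 0.0222% of all genes were called. CTS had 0 higher and 2 lower (5.41%) than GelMA, where 0.416% and 1.32% were. For these zeros, edgeR gave an unadjusted p under 0.05 to 3, 1 and 0 members in turn, and DESeq2 and limma called 0 in each.

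**Figure D1:**
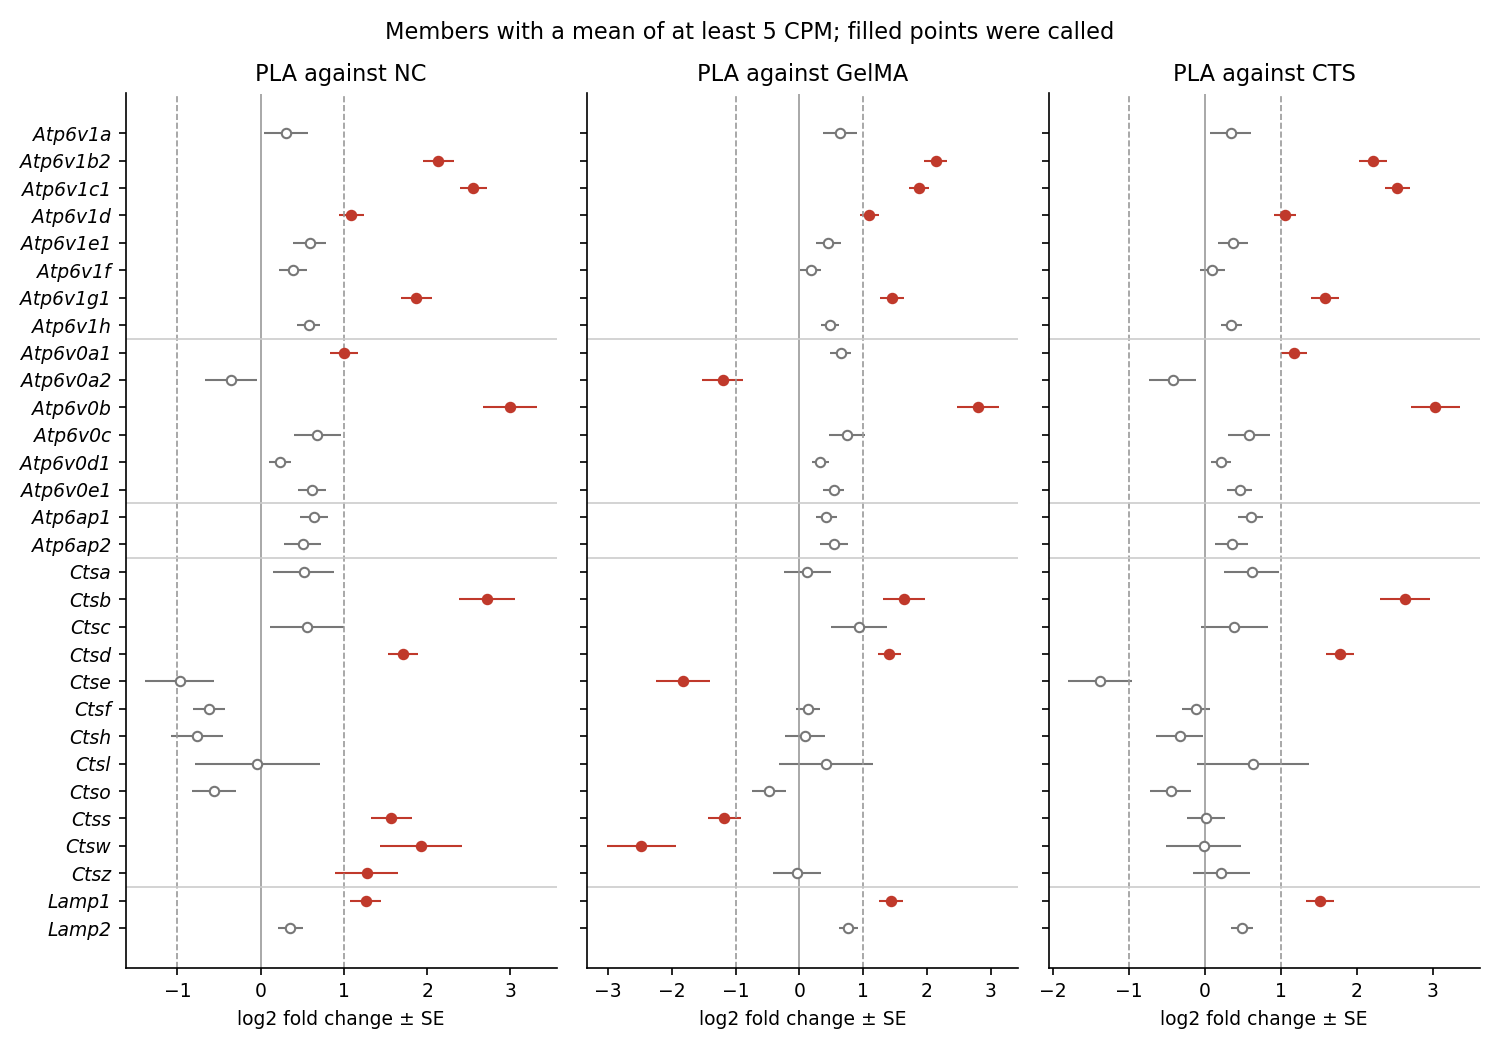
Log2 fold change with its standard error (horizontal axis, edgeR) of the 30 members with a mean level of at least 5 CPM, in PLA against NC, GelMA and CTS, ordered as V1, V0, accessory, cathepsin and LAMP genes. Filled red points were called, open grey points were not, and dashed lines mark a log2 fold change of 1 in either direction. Atp6v0b, Atp6v1b2, Atp6v1c1 and Ctsb lie above 1.6 in each panel, whereas Ctss, Ctsw, Ctse and Atp6v0a2 lie below -1 against GelMA.

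Within V1, PLA was higher in the genes of subunits B, C, G and D. Atp6v1b2 codes for the B2 subunit, which forms the ATP-splitting ring with subunit A. It stood at 289, 255 and 242 CPM in NC, 224, 261 and 300.2 in GelMA, 263, 214 and 266 in CTS and 1084 and 1217 in PLA. Both PLA libraries lay above all 9 others, and the log2 fold change was 2.14 ± 0.18 (SE) against NC (edgeR adjusted p = 7.1e-05), 2.14 against GelMA and 2.22 against CTS. Atp6v1c1 codes for subunit C, which joins V1 to V0 in a regulated way. Its levels were 79.2, 71.8 and 70.5 CPM in NC, 104, 114 and 136 in GelMA, 73.4, 68.1 and 84.0 in CTS and 434 and 433 in PLA. That was 5.87-fold above NC (log2 2.55 ± 0.16, adjusted p = 2.8e-05), 3.68-fold above GelMA and 5.77-fold above CTS. The GelMA libraries also lay above all NC libraries, by 0.67 ± 0.15 on the log2 scale, which did not reach the fold threshold.

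Atp6v1g1 codes for subunit G, part of the peripheral stalk. It was at 187, 120.4 and 154 CPM in NC, 189, 208 and 216 in GelMA, 188, 178 and 198 in CTS and 549 and 573 in PLA, with log2 fold changes of 1.87 ± 0.19, 1.46 ± 0.18 and 1.58 ± 0.18 for PLA against NC, GelMA and CTS. Atp6v1d codes for subunit D of the central rotor. It was at 70.7, 56.9 and 59.5 CPM in NC, 57.6, 64.2 and 64.4 in GelMA, 65.1, 59.7 and 66.7 in CTS and 139 and 127 in PLA. The PLA libraries did not overlap the others, but the log2 fold changes of 1.09, 1.10 and 1.06 lay just past the threshold. Without NC replicate 3, CTS replicate 2 or PLA replicate 1 the call of Atp6v1d was lost in 1 of the 3 comparisons.

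The other widely expressed V1 genes were not called in PLA against NC, GelMA or CTS. Atp6v1a, the catalytic A subunit, was at 199, 92.9 and 169.6 CPM in NC, 123 in each GelMA library, 149, 173 and 130.0 in CTS and 188 and 193 in PLA. Its PLA libraries overlapped those of NC, and the log2 fold change was 0.31 ± 0.27. For Atp6v1e1, Atp6v1f and Atp6v1h it was 0.59 ± 0.20, 0.39 ± 0.17 and 0.58 ± 0.14 against NC. Atp6v1h had an edgeR adjusted p of 0.019 there and missed only the fold threshold. The FPKM ratio of Atp6v1b2 to Atp6v1a, which does not depend on how libraries are scaled, was 9.07 and 9.91 in PLA and 1.93 to 4.30, with a median of 2.86, in the other 9 libraries. This ratio and those below were chosen after the levels were seen and carry no test.

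**Figure D2:**
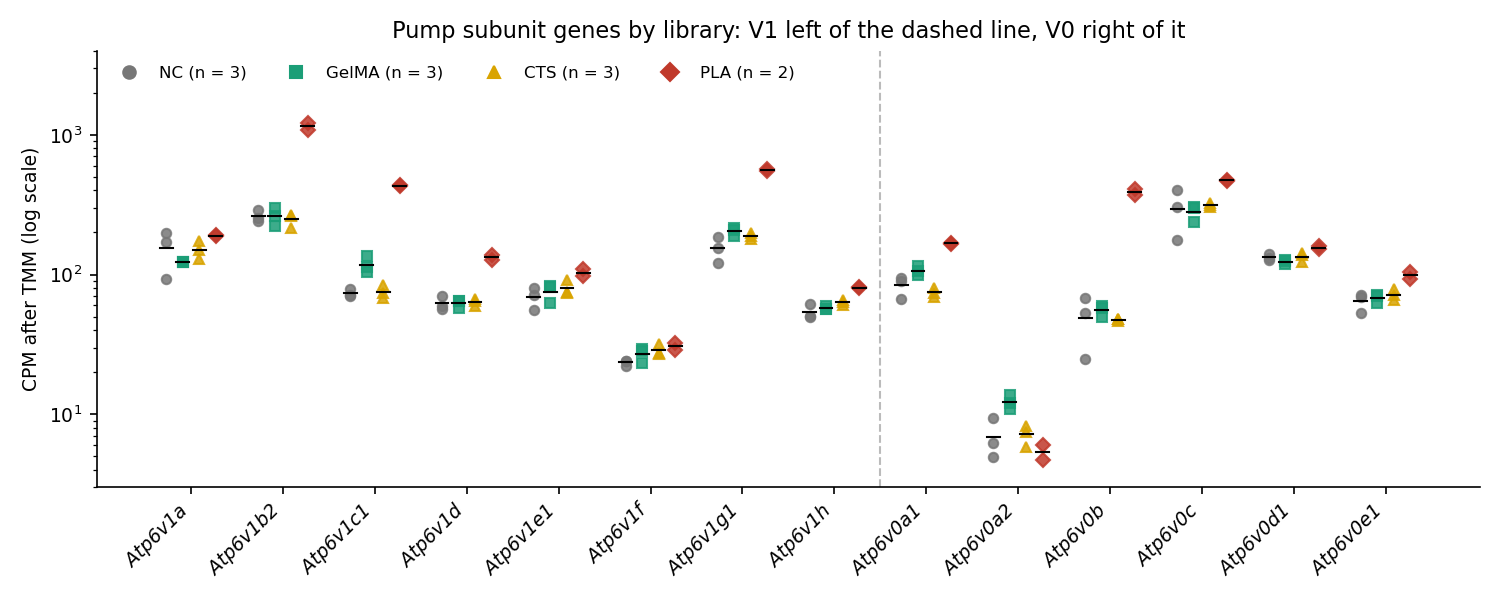
Level of each pump subunit gene with a mean of at least 5 CPM in every library (log axis, CPM after TMM), V1 genes left and V0 genes right of the dashed line. Each point is 1 library and black bars are group means. In Atp6v1b2, Atp6v1c1, Atp6v1d, Atp6v1g1, Atp6v0a1 and Atp6v0b both PLA points lie above every other point. The same holds for Atp6v1e1, Atp6v1h, Atp6v0c, Atp6v0d1 and Atp6v0e1, which were not called. In FPKM, with no TMM factor, PLA overlaps other libraries in these uncalled genes and in Atp6v0a1. Of all genes tested, 21.9%, 27.7% and 26.5% have both PLA libraries above every NC, GelMA or CTS library in turn. In Atp6v1a both PLA points lie within the NC range.

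The largest difference of a pump subunit between PLA and NC, among those with a mean of at least 5 CPM, was in V0. Atp6v0b codes for the c'' subunit of the proton-carrying ring. It was at 67.9, 24.8 and 53.4 CPM in NC, 50.0, 59.3 and 57.8 in GelMA, 46.5, 47.6 and 48.3 in CTS and 370.4 and 406 in PLA. PLA was 7.97-fold above NC (log2 3.00 ± 0.32, adjusted p = 0.00027), 6.97-fold above GelMA and 8.18-fold above CTS. Atp6v0c, which codes for the c subunit of the same ring, was at 399.9, 177 and 305 CPM in NC, 239, 305 and 300.2 in GelMA, 326, 303 and 317 in CTS and 468 and 475 in PLA. Its log2 fold changes were 0.68 ± 0.28, 0.74 ± 0.28 and 0.58 ± 0.28, with adjusted p-values of 0.13, 0.13 and 0.20. The FPKM ratio of Atp6v0b to Atp6v0c was 1.97 and 2.13 in PLA and 0.349 to 0.521 in the other 9 libraries.

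The a subunits, which hold the proton channel and place the pump on its membrane, did not move alike. Atp6v0a1 was at 89.6, 66.7 and 94.2 CPM in NC, 98.9, 105 and 115 in GelMA, 69.1, 73.7 and 80.3 in CTS and 169 and 165 in PLA. It was called against CTS (log2 1.17 ± 0.17) and, at 1.00 ± 0.17, at the threshold itself against NC. The NC call held in 4 of 20 other fits and was lost without NC replicate 2, PLA replicate 1 or any 1 GelMA or CTS library. Atp6v0a2 was at 6.24, 9.35 and 4.90 CPM in NC, 12.04, 10.9 and 13.8 in GelMA, 8.27, 5.85 and 7.41 in CTS and 5.97 and 4.69 in PLA. It was lower in PLA than in GelMA by 1.20 ± 0.32 on the log2 scale (adjusted p = 0.045). That call was lost when any 1 of the GelMA, CTS or PLA libraries was left out. Tcirg1, the a3 subunit of osteoclasts and some macrophages, belongs to a list of pump assembly genes and was 1.40 ± 0.27 higher in PLA than in NC.

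Among the remaining V0 genes, Atp6v0d1 and Atp6v0e1 differed by 0.23 ± 0.13 and 0.62 ± 0.16 between PLA and NC and were not called. The accessory proteins Atp6ap1, which aids assembly, and Atp6ap2, the prorenin receptor, differed by 0.64 ± 0.16 and 0.51 ± 0.22 and were not called. Atp6v0e1 and Atp6ap1 had edgeR adjusted p-values of 0.031 and 0.025 and missed only the fold threshold. Subunit forms known from kidney, sperm or brain were rare: Atp6v0a4, Atp6v0e2, Atp6v1c2, Atp6v1e2 and Atp6v1g3 had means of 0.175 to 2.66 CPM. Atp6v1e2 was at 0.934, 1.85 and 0.306 CPM in NC, 1.05, 0.334 and 0.730 in GelMA, 0.295, 0.474 and 0.295 in CTS and 2.36 and 4.13 in PLA. It was called higher in PLA than in CTS (log2 3.18 ± 0.80), from 329 counts over all libraries, and leaving out any 1 CTS or PLA library ended the call.

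Cathepsin B made up about as much of the cathepsin RNA in PLA as all the others combined. Ctsb codes for a cysteine protease of lysosomes and was the member with the highest mean FPKM. It stood at 522, 1111 and 605 CPM in NC, 1229, 1619 and 1894 in GelMA, 741, 668 and 966 in CTS and 5057 and 4766 in PLA. PLA was 6.59-fold above NC (log2 2.72 ± 0.34, adjusted p = 0.00055), 3.11-fold above GelMA and 6.20-fold above CTS. The call against GelMA was lost without GelMA replicate 1 or 2 or PLA replicate 1 or 2, with log2 fold changes that stayed above 1. GelMA libraries also lay above NC, by 1.08 ± 0.30 (adjusted p = 0.047), a call kept in 6 of 20 other fits and lost without any 1 library other than NC replicate 2. As a share of summed cathepsin FPKM, Ctsb was 51.3% ± 0.7 (SD, n = 2) in PLA, 17.1% ± 1.3 (n = 3) in NC, 28.3% ± 3.0 (n = 3) in GelMA and 19.1% ± 0.9 (n = 3) in CTS.

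**Figure D3:**
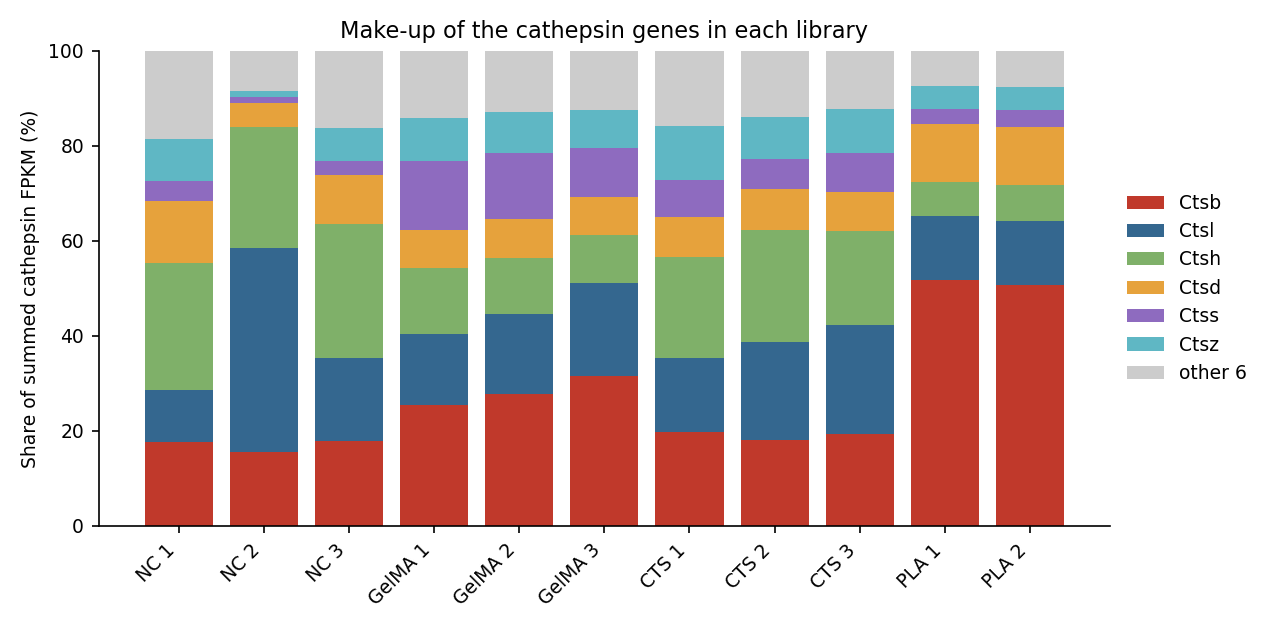
Share of each cathepsin gene in the summed FPKM of the 12 cathepsin genes (vertical axis, percent) in each of the 11 libraries. Bars sum to 100%, and grey holds the 6 genes with the lowest means. Ctsb takes 50.8% to 51.8% in PLA and 15.6% to 31.5% elsewhere, and Ctsl is the largest part in NC replicate 2.

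Ctsd codes for the aspartic protease of lysosomes, which can activate other hydrolases. Its levels were 396, 359.7 and 357 CPM in NC, 393, 489 and 489 in GelMA, 319, 324 and 419 in CTS and 1239 and 1183 in PLA. The PLA libraries lay above all others, 3.26-fold above NC (log2 1.71 ± 0.18, adjusted p = 0.00023), 2.65-fold above GelMA and 3.42-fold above CTS. Ctse, the related aspartic protease of immune and epithelial cells, was lowest in PLA among the scaffold groups. It was at 39.4, 12.1 and 37.2 CPM in NC, 59.9, 51.3 and 49.1 in GelMA, 42.6, 42.7 and 32.6 in CTS and 13.4 and 16.7 in PLA. It was lower in PLA than in GelMA by 1.83 ± 0.43 on the log2 scale, a call lost without any 1 of the GelMA or PLA libraries. Against NC the libraries overlapped because of NC replicate 2, without which Ctse was lower in PLA by 1.35 (adjusted p = 0.00035).

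Ctsl and Ctsh, cysteine proteases with high FPKM, were not called in any comparison. Ctsl was at 227, 2151 and 413 CPM in NC, 504, 697 and 835 in GelMA, 409, 535 and 807 in CTS and 930.0 and 883 in PLA. NC replicate 2 lay far above both its own group and PLA, and the log2 fold change for PLA against NC was -0.04 ± 0.75. Without that library it was 1.50 (adjusted p = 0.016), past the threshold in the other direction. Ctsh was at 602, 1404 and 733 CPM in NC, 515, 534 and 466 in GelMA, 612, 669 and 756 in CTS and 525 and 550.4 in PLA, so that no PLA library reached the NC range. Its log2 fold change was -0.76 ± 0.32 with an adjusted p of 0.13. Ctsa, a serine protease that shields other hydrolases, was at 328 and 344 CPM in PLA and 139, 388 and 178 in NC. It was not called with all libraries and was 1.08 higher in PLA without NC replicate 2 (adjusted p = 0.0012).

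Ctsc, Ctsf and Ctso were not called in the 6 comparisons. For Ctsc, which activates granule proteases of neutrophils and cytotoxic cells, PLA against NC gave 0.56 ± 0.44. For Ctsf, it gave -0.62 ± 0.19 with an adjusted p of 0.050, and GelMA against NC gave -0.76 ± 0.17 with an adjusted p of 0.018, both under the fold threshold. For Ctso, the least abundant of the 3, it gave -0.56 ± 0.27.

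Ctss and Ctsw were highest in GelMA and not in PLA. Ctss, the cathepsin that trims the invariant chain of MHC class II in antigen-presenting cells, was at 82.6, 62.2 and 69.3 CPM in NC, 474, 544 and 418 in GelMA, 199.6, 153 and 280.2 in CTS and 197 and 227 in PLA. The 4 groups fell in 3 levels that did not overlap, with CTS and PLA sharing the middle one. GelMA was 6.71-fold above NC (log2 2.75 ± 0.24, adjusted p = 0.00043) and PLA 2.97-fold above NC (1.57 ± 0.25, adjusted p = 0.0023). PLA was lower than GelMA by 1.18 ± 0.26 (adjusted p = 0.022) and CTS was lower than GelMA by 1.18 ± 0.23 (adjusted p = 0.031). CTS was above NC by 1.56 ± 0.23 (adjusted p = 0.047), a call kept in 8 of 20 other fits and lost without any 1 library other than NC replicate 1, NC replicate 2 or CTS replicate 2.

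Ctsw, a cathepsin known from natural killer and cytotoxic T cells, was at 2.55, 5.24 and 6.66 CPM in NC, 91.9, 98.3 and 116 in GelMA, 18.8, 7.49 and 29.4 in CTS and 16.9 and 19.7 in PLA. GelMA was 21.2-fold above NC (log2 4.40 ± 0.51, adjusted p = 0.00081). PLA was above NC by 1.93 ± 0.50, a call lost without NC replicate 1, GelMA replicate 2 or either PLA library, and below GelMA by 2.48 ± 0.54. CTS was below GelMA by 2.46 ± 0.46. The calls of Ctss and Ctsw lower in PLA than in GelMA were lost without GelMA replicate 1 or 2 or PLA replicate 1 or 2, as was that of Ctsw without GelMA replicate 3. The calls of CTS below GelMA were lost without any 1 GelMA or PLA library or CTS replicate 1 or 2 and, for Ctss, NC replicate 3. Ctsz, which holds an exopeptidase and an integrin-binding motif, was at 179.6, 58.2 and 163 CPM in NC, 302, 355 and 336 in GelMA, 292, 228 and 316 in CTS and 335 and 311 in PLA. PLA and GelMA were above NC by 1.27 ± 0.37 and 1.31 ± 0.34. Without NC replicate 2 these fell to 0.91 and 0.95, under the fold threshold, and the calls were also lost without any 1 other library except NC replicate 1.

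**Figure D4:**
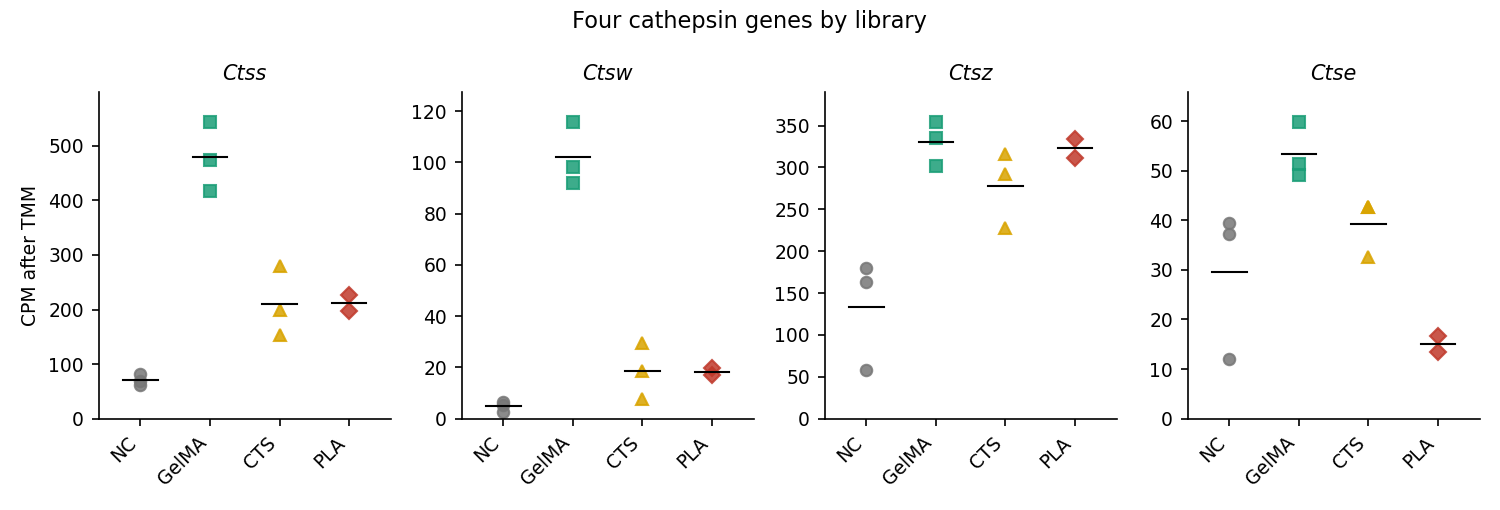
Level of Ctss, Ctsw, Ctsz and Ctse in each library (vertical axis, CPM after TMM, from 0), by group. Points are libraries and black bars are group means. GelMA lies highest in Ctss and Ctsw, at 418 to 544 and 91.9 to 116 CPM, while in Ctsz only NC stands below the rest and in Ctse PLA and NC replicate 2 are lowest.

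Immune cell markers also differed between the groups, but not all in the same direction. Neutrophil markers were lower in GelMA than in NC in 5 of 9 genes, where 3.21% of all genes were lower. The 6 T and natural killer cell markers summed to 423 to 496 CPM in GelMA, 43.9 to 134 in NC, 133 to 182 in CTS and 184 to 196 in PLA, and 5 of 6 were higher in GelMA than in NC. In PLA 5 were higher than in NC and 1 lower. Over all genes tested, 5.03% were called higher in GelMA than in NC, and 8.32% higher and 4.01% lower in PLA than in NC. The 6 B cell markers summed to 232 to 337 CPM in GelMA, 18.0 to 36.7 in NC, 67.8 to 105 in CTS and 27.7 to 43.0 in PLA. Again 5 of 6 were higher in GelMA than in NC, and 1 was higher in PLA than in NC. Of the 6 dendritic cell markers, 5 were higher in GelMA than in NC and 4 in PLA than in NC, and they summed to 1057 and 1059 CPM in PLA and 601 to 707 in GelMA. Itgax made up 80.5% to 84.8% of the sum in PLA, and without it the order turned, with 161 to 206 CPM in PLA and 304 to 352 in GelMA. Of 13 macrophage markers, 10 were higher in GelMA than in NC. Among the T, natural killer, B and dendritic cell markers, Vpreb1 was at 0 in 2 libraries and the others were detected in all. Their part in the levels of Ctss, Ctsw and Ctsz was not tested.

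Lamp1 was the LAMP that rose in PLA. It was at 538, 737 and 516 CPM in NC, 487, 556 and 547 in GelMA, 474, 533 and 503 in CTS and 1459 and 1409 in PLA. Both PLA libraries were above all others, and the log2 fold change was 1.26 ± 0.19 against NC (adjusted p = 0.0016), 1.44 ± 0.19 against GelMA and 1.51 ± 0.19 against CTS. Lamp2, which also serves chaperone-mediated autophagy, was at 644, 669 and 621 CPM in NC, 490.3, 502 and 459 in GelMA, 549.8, 576 and 638 in CTS and 837 and 813 in PLA. The PLA libraries were again the highest in CPM, but the log2 fold changes of 0.36 ± 0.15, 0.77 ± 0.15 and 0.49 ± 0.15 were under the fold threshold. In FPKM, with no TMM factor, Lamp2 was at 96.7 and 92.9 in PLA, within the 79.7 to 100.1 of NC. The edgeR adjusted p-values were 0.14, 0.012 and 0.055, so only GelMA passed that cut. The FPKM ratio of Lamp1 to Lamp2 was 4.48 and 4.45 in PLA and 2.03 to 3.06 in the other 9 libraries.

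Lamp3, a marker of mature dendritic cells and of alveolar type II cells, was rare. It had 0 counts in each NC library, levels of 3.06, 2.70 and 2.54 CPM in GelMA, 0, 0.0316 and 1.08 in CTS and 0.207 and 0.387 in PLA. With 3 counts over the NC group as the limit that a count of 0 allows, GelMA was at least 66.2-fold higher than NC, for counting error only. The call had an adjusted p of 0.038 and was lost without NC replicate 1 or 3 or any 1 of the GelMA or PLA libraries.

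The promoters of Lamp1 and Ctsd are shown because both genes rose in PLA and carry more than 1 copy of CACGTG, the core of the sequence that TFEB binds. RefSeq promoter sequences of rat assembly GRCr8, from 250 bases before to 50 after each gene's start, were found for 32 of the 39 members and not for Atp6v0e2, Atp6v1b2, Atp6v1c1, Atp6v1fnb, Atp6v1h, Ctsb and Ctsw. The counts were made on another assembly, mRatBN7.2. The 250 bases before each start follow, read 5′ to 3′ on the gene's strand, with CACGTG in capitals. Lamp1 is at chr16:83075064-83075313, minus strand, and Ctsd at chr1:206968822-206969071, minus strand.
Lamp1: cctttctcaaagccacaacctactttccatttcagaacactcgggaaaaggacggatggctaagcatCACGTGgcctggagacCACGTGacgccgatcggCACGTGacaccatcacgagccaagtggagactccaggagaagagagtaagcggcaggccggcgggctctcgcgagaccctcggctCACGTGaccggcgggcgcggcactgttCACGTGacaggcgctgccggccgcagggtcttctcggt
Ctsd: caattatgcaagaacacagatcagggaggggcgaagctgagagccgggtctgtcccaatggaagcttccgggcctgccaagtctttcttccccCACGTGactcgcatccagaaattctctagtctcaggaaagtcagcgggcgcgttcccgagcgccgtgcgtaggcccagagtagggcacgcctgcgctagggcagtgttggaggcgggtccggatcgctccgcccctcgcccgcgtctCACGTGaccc

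Lamp1 holds 5 copies, the first bases of which lie 183, 167, 150, 65 and 38 bases before the start, and Ctsd holds 2, at 157 and 10 bases before it. Of all 33469 promoters in the table, 0.52% held 2 or more copies and 0.00299%, which is 1 promoter, held 5 or more. CACGTG reads the same on both strands. At least 1 copy was found in 5 of the 32 members (15.6%) and in 6.42% of all promoters. Of the 13 members called higher in PLA in at least 1 comparison, 9 had a promoter sequence, and 7 of these (Atp6v0a1, Atp6v0b, Atp6v1d, Atp6v1e2, Atp6v1g1, Ctss and Ctsz) held no CACGTG in this window. The other 3 members with a copy were Atp6v0d1, Atp6v0e1 and Ctsf, which were not called in any comparison and are shown with 30 bases around the motif for contrast. Their windows lie at chr19:50357283-50357312, minus strand, at chr10:17007115-17007144, minus strand and at chr1:211582008-211582037, plus strand.
Atp6v0d1: ccccattgtggtCACGTGagatgcagtgcg
Atp6v0e1: tcgcgcgccggtCACGTGagcctctgttga
Ctsf: caccccgtggtcCACGTGcctcgcgtaaat

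In Atp6v0e1 the motif starts at base 25 of the part after the start, in Atp6v0d1 it lies 52 bases before the start and in Ctsf 149 bases before it. The longer form TCACGTG, searched on both strands and overlapping the first motif, was in 4 of the 32 members (12.5%) and in 3.20% of all promoters. TGANTCA, the AP-1 site, was in 2 of the 32 (6.2%) and in 7.33% of all promoters, both strands. A match says only that these letters are present, and binding was not measured.

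Genes of TFEB and of its control by nutrients were compared next. Of 21 such genes tested, 6 rose in PLA relative to NC (28.6%, against 8.32% of all genes), and DESeq2 called 6 while limma called 3. None was called lower in edgeR, where 1 was lower at an unadjusted p under 0.05, and DESeq2 and limma also called 0. Tfeb was at 28.8, 11.8 and 22.6 CPM in NC, 25.5, 32.7 and 26.8 in GelMA, 31.8, 24.8 and 23.4 in CTS and 90.7 and 119.6 in PLA. PLA was higher by 2.32 ± 0.32, 1.89 ± 0.32 and 1.98 ± 0.32 on the log2 scale (adjusted p = 0.0011, 0.0060 and 0.0032). Fnip2, a partner of folliculin in the complex that controls TFEB from the lysosome, was at 102, 213 and 103 CPM in NC, 89.6, 140.0 and 176 in GelMA, 91.1, 95.8 and 99.5 in CTS and 1011 and 1020 in PLA. Rragd, a Rag GTPase of the same complex, was at 8.71 and 14.0 CPM in PLA and at 0.885 to 3.69 in the other libraries. The related factors Tfe3, Mitf and Tfec differed by 0.33 ± 0.17, -0.29 ± 0.53 and 0.64 ± 0.39 between PLA and NC and were not called.

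**Figure D5:**
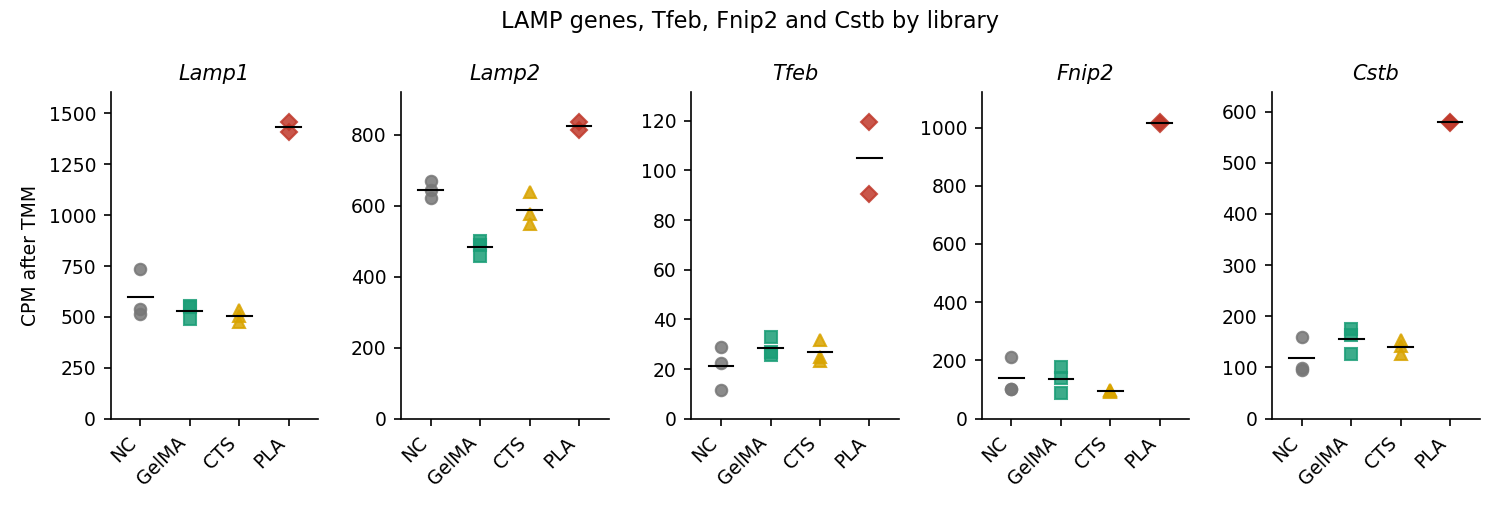
Level of Lamp1, Lamp2, Tfeb, Fnip2 and Cstb in each library (vertical axis, CPM after TMM, from 0), by group. Points are libraries and black bars are group means. The 2 PLA libraries are the highest in each panel, with Fnip2 at 1011 and 1020 CPM against at most 213 elsewhere. In FPKM, with no TMM factor, Lamp2 in PLA lies within the range of NC.

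The other lysosomal genes are given by list, beside the 8.32% higher and 4.01% lower of all genes tested in PLA against NC; differences between lists were not tested. Of 29 lysosomal membrane proteins, 10 rose in PLA relative to NC (34.5%) and 0 fell, where 2 were lower at an unadjusted p under 0.05 in edgeR and DESeq2 and limma called 0. Slc15a3, a peptide transporter of endolysosomes, was at 113, 36.6 and 116 CPM in NC and 802 and 855 in PLA. Slc11a1, a metal transporter of phagosomes, was 2.62 ± 0.40 higher, and Clcn7, the chloride-proton exchanger that partners the pump, 2.10 ± 0.23. Of 39 acid hydrolases other than cathepsins, 5 were higher (12.8%) and 1 lower (2.56%). Lgmn, the protease that cleaves single-chain cathepsins, was higher by 2.80 ± 0.49, Gla by 2.43 ± 0.21 and Lipa by 1.75 ± 0.27, and Ggh was lower by 2.49 ± 0.50. Summed over the 39 hydrolases the levels were 5490 and 5775 CPM in PLA and 4073 to 5730 elsewhere, so the groups overlapped. As a share of all counts, with no TMM factor, they took 0.424% to 0.450% in PLA and 0.426% to 0.457% in NC. That share was 0.581% to 0.639% in GelMA and 0.524% to 0.607% in CTS, above both PLA libraries. Without NC replicate 2 the hydrolases had 9 higher and 3 lower.

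Of 14 genes that sort enzymes to the lysosome, 2 were higher and 2 lower in PLA than in NC (14.3% each). Igf2r, the mannose 6-phosphate receptor, was at 133, 221 and 123 CPM in NC and 512 and 515 in PLA, and Gga3, an adaptor for it, was 1.07 ± 0.24 higher. Sort1 and Gnptg were lower, by 1.77 ± 0.49 and 1.43 ± 0.27. Of 12 pump assembly genes, Tcirg1 was higher and Rogdi lower (-1.71 ± 0.46), which is 8.33% of the list in each direction and for the higher genes close to the 8.32% of all genes. Without NC replicate 2, 3 were lower. Of 12 inhibitors of cathepsins, Cstb and Ctla2a rose in PLA relative to NC, whereas Cst3 fell (16.7% and 8.33% of the list). Cstb, the cytosolic cystatin B, was at 160.4, 94.2 and 99.9 CPM in NC, 127, 164 and 175 in GelMA, 126, 142 and 155 in CTS and 580.1 and 578 in PLA. Cst3, the secreted cystatin C, was at 321, 702 and 529.6 CPM in NC and 179 and 197 in PLA, and Ctla2a was 1.08 ± 0.25 higher from means of 3.37 and 7.12 CPM.

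Macrophages and osteoclasts are rich in this machinery, so their markers are given beside it. Of 13 macrophage markers tested, 5 were higher in PLA than in NC, 3 higher than in CTS and 2 lower than in GelMA. Over all genes tested, 8.32%, 6.42% and 1.47% were called in these directions, and 4.01% were lower in PLA than in NC. Their list of 14 summed to 4703 and 5392 CPM in PLA, 2667 to 10732 in NC, 5652 to 9203 in GelMA and 10373 to 12963 in CTS, of which Lyz2 alone made up 65.5% to 94.9%. Without Lyz2 the sum was 1624 to 1681 CPM in PLA, above the 361 to 550 of NC and the 825 to 984 of CTS and below the 1733 to 1935 of GelMA. Marco was at 0 in 10 of the 11 libraries and Cd163 in 1. Cd68 is also in the list of lysosomal membrane proteins and was called higher than NC in both lists. Of 9 neutrophil markers, 1 was higher and 5 lower in PLA than in NC, and the list of 10 summed to 8680 and 9299 CPM in PLA and 8282 to 62442 in NC. Of 10 osteoclast markers, 4 rose in PLA relative to NC, namely Acp5, Atp6v0d2, Oscar and Tcirg1. Atp6v0d2 and Tcirg1 code for pump subunits themselves, and Tcirg1 is also in the list of pump assembly genes. The osteoclast list summed to 1032 and 1072 CPM in PLA, 1007 to 1654 in NC, 557 to 578 in GelMA and 996 to 1114 in CTS. Mmp9 made up 49.0% to 52.1% of it in PLA and up to 87.8% in NC. Without Mmp9 the sum was 494 to 547 CPM in PLA, 201 to 773 in NC, 305 to 369 in GelMA and 268 to 438 in CTS. The genes left out of the members for their ties to osteoclasts or neutrophils were at 4.15 and 4.43 CPM (Atp6v0d2), 168 and 209 CPM (Ctsk) and 49.3 and 89.1 CPM (Ctsg) in PLA, and at 0.0383 to 0.297, 74.9 to 625 and 171 to 956 CPM in NC. The part of these cells in the levels of the members was not tested.

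Of the 42 calls over the 6 comparisons, 19 were kept in all of the 20 other fits made. They were those of Atp6v0b, Atp6v1b2 and Atp6v1c1 in PLA against NC, GelMA and CTS, of Atp6v1g1, Ctsb and Ctsd against NC and CTS, of Lamp1 against CTS, of Ctss in PLA and GelMA against NC, and of Ctsw in GelMA against NC. Library size alone and limma on FPKM, neither of which carries a composition factor, ended the calls of Atp6v1d in PLA against NC, GelMA and CTS, of Atp6v0a1 against NC and CTS, of Lamp1 against NC and GelMA, of Atp6v1g1 and Ctsd against GelMA and of Ctsz against NC. Without NC replicate 2, 12 members were higher and 1 lower in PLA than in NC. The 4 members lower in PLA than in GelMA fell to 0 without GelMA replicate 1 or 2 or either PLA library and to 1 without GelMA replicate 3.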

How the data were processed

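Reads were cleaned by the authors using fastp and mapped on mRatBN7.2 by HISAT2, and they deposited counts per gene from HTSeq, and FPKM for the same genes. Versions are not given in the sources used here. Each of the 205408 FPKM values above 0 equals count over gene length and library total (relative tolerance 0.001), so FPKM holds no composition factor. All 11 columns of both tables were mapped by their labels.

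From the counts, edgeR 4.0.16 under R 4.3.3 gave the tests (filterByExpr, minimum count 10, TMM, robust quasi-likelihood fit of 4 groups, Benjamini-Hochberg over 18049 genes). SE is the log2 fold change divided by the square root of F. Alternatives used DESeq2 1.42.0, limma 3.58.1 on log2(FPKM + 1) or log2(FPKM + 0.1), other scalings, filters and a replicate block, and left out each library. Fits were tested on simulated data. Same-numbered libraries of different groups deviated together in 1 of 15 pairs (r over 0.1), so numbers were not taken as pairs.

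The members and all lists were chosen with earlier results of these data known. Named with values were members called in a comparison, the 5 with the highest mean FPKM, members failing the filter and, from each list, up to 3 genes per direction with the largest fold change among those called in PLA against NC. Further genes were added as examples of a role. Figures were drawn with Python and matplotlib.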

Additional observations from a re-analysis of the deposited data

How the results depend on the processing

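No call among the 42 turned its direction in the alternatives run. The 12 members higher in PLA than in NC became 7 with edgeR on the 2 groups compared and with limma on log2(FPKM + 1), with or without a filter, and ranged from 9 to 12 when 1 library was left out. The count lower in PLA than in NC became 1 with library size alone and without a fold threshold, and 0 to 1 without 1 library. The 8 higher in PLA than in GelMA became 4 with library size alone and with limma at a pseudocount of 1, with or without a filter, or of 0.1 (7 to 8 without 1 library), and the 4 lower became 6 with edgeR on the 2 groups and 5 with library size alone and with filtered limma at a pseudocount of 1 (0 to 4 without 1 library). The 10 higher in PLA than in CTS became 7 with each limma fit and 11 without a fold threshold (8 to 10 without 1 library). The count lower in PLA than in CTS became 1 with library size alone, without the low-count filter, with edgeR on the 2 groups, with DESeq2 and with each limma fit (0 to 1 without 1 library). The 5 higher in GelMA than in NC became 3 with edgeR on the 2 groups and with unfiltered limma (2 to 5), and the lower count became 1 without a fold threshold (0 to 1). The 1 higher in CTS than in NC became 0 with RLE factors, edgeR on the 2 groups and unfiltered limma and 2 with DESeq2 (0 to 2). The 2 lower in CTS than in GelMA became 3 with filtered limma (0 to 3 without 1 library). The causes were not tested.

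The replicate number did not pair the libraries. As a replicate block it gave 1 member lower in PLA than in GelMA, 3 higher in GelMA than in NC, 0 higher in CTS than in NC and 1 lower in CTS than in GelMA, and over all genes 0 higher and 0 lower in CTS against NC in place of 28 and 4.

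Among uncalled values, the log2 fold change of Ctsl in PLA against NC went from -0.04 to 1.50 without NC replicate 2, and ranged from -0.50 to 1.50 when 1 library was left out. With 1 library left in PLA, its spread was assumed to match that of the other groups. Scaling by library size alone changed the share of higher calls among all calls from 67.5% to 41.3% (PLA against NC), 75.8% to 15.9% (GelMA) and 64.5% to 23.6% (CTS). Depth limits the 7 rare members tested, at 59 to 864 counts each over all libraries.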
